A study of Tursiops truncatus with 17 samples.

Results

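The mitochondrial genome was represented by 36 of the 21265 genes in the files: 12 protein-coding genes, 2 ribosomal RNA (rRNA) genes and 22 transfer RNA (tRNA) genes. These members were taken as the rows whose symbol begins with MT- or whose gene type is mitochondrial rRNA or tRNA. That rule uses no measured value, but the members were chosen for study with earlier results of these data known. They were followed in cerebral cortex from 17 bottlenose dolphins (Tursiops truncatus, genotype given as WT), 8 of them in the submitters' non-bloom season group and 9 in their bloom season group. All of the tissue was frozen necropsy material from an archive, and each dolphin gave 1 library. Numbers such as bloom 4 give a dolphin's place in its group by deposition. The comparison asks which cortical transcripts differed between the seasons, and age, sex, dates and sequencing batches were not among the labels used here, so season and any batch that went with it cannot be told apart.

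Mitochondrial DNA is a small circle present in many copies per cell. Both of its strands are copied into long precursor RNAs, which are cut at the tRNAs that lie between most genes, and the released messenger RNAs (mRNAs) then differ in stability. The mRNAs encode core subunits of respiratory complexes I, III and IV and of the ATP synthase (complex V), and the rRNAs and tRNAs serve the mitochondrial ribosome. Every other protein of the organelle, including the machinery that copies, cuts and degrades these RNAs, comes from nuclear genes. In cortex the respiratory chain is known for supplying the ATP that neurons use for signalling.

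The libraries held between 7680050 and 15635292 reads. Bloom 5, bloom 6 and bloom 9 stood apart, with 57.0%, 33.5% and 77.2% of their reads in the members, and bloom 8 and bloom 4 had the lowest shares, 1.47% and 4.63%. The other 4 bloom libraries, at 8.86% to 19.5%, and the 8 non-bloom libraries, at 9.68% to 22.1%, lay between these. The tissue label was checked against cell type markers: 9 pan-neuronal, 8 astrocyte and 9 oligodendrocyte markers were found in the files, and each of these had reads in every library. Their summed values differed between libraries. The pan-neuronal sum was 2471 in bloom 5, 3626 in bloom 6 and 7593 in bloom 9, against 8260 to 13661 in the non-bloom group. The astrocyte sum was 9399, 7683 and 9145 in bloom 5, 6 and 9, against 1785 to 3254 in the non-bloom group, and the oligodendrocyte sum was 18066, 19085 and 14075, against 1647 to 7876. The endothelial sum was 2126, 2309 and 157, against 257 to 790, and the microglial sum was 3.98, 1.33 and 4.00, against 1.91 to 280. Results that rest on these 3 libraries are therefore given with and without them, and the part of cell makeup in them was not tested. In such bulk tissue fewer cells of a type and less RNA per cell cannot be told apart. By their source names no libraries share a dolphin, so the spread between libraries includes that between animals.

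All 12 protein-coding members and both rRNA genes had reads in every library. Of the 22 tRNA genes, 17 had no read in any library and 1 had reads in every library. That one, at MT:6909-6977, shares 5 bases with the end of MT-CO1, and it had between 30 and 762 reads. The other 4 with any read had at most 38. They were the tRNA genes at MT:3794-3866, MT:9851-9920, MT:14122-14190 and MT:15405-15471. The libraries were made by a messenger RNA method, and transfer RNAs are short and carry no long poly(A) tail, so the counts describe what this method captured. The filter on low counts kept 15 members for the season test, which were the 12 mRNAs, both rRNA genes and the tRNA gene at 6909, and left 21 tRNA genes out. One further gene on the mitochondrial sequence, ATP8 at MT:7809-8000, carries no symbol of the required form and is not a member, so complex V is represented by MT-ATP6 alone.

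The rRNA genes carry no symbols in the files and are named here by length. The shorter one (MT:73-1046, 974 bases, ENSTTRG00000025376) and the longer one (MT:1114-2690, 1577 bases, ENSTTRG00000025378) correspond by length and position to the small-subunit and large-subunit rRNA genes of vertebrate mitochondrial DNA. After them along the sequence come MT-ND1 (2767-3723), MT-ND2 (3937-4978), MT-CO1 (5363-6913), MT-CO2 (7053-7736), MT-ATP6 (7970-8650), MT-CO3 (8650-9434), MT-ND3 (9504-9849), MT-ND4L (9921-10217), MT-ND4 (10211-11588), MT-ND5 (11790-13610), MT-ND6 (13594-14121) and MT-CYB (14195-15334). Positions are those of the files; the sources used here do not name a genome build. Neighbouring genes overlap by 7 bases at MT-ND4L and MT-ND4, by 17 at MT-ND5 and MT-ND6 and by 1 at MT-ATP6 and MT-CO3. The files do not say how reads were assigned there, whether strand was used, or how reads that also match nuclear copies of mitochondrial DNA were counted.

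Deposited values are CPM, read counts relative to the size of the library, after scaling of the library sizes by a trimmed mean of M values (TMM). The scaling follows the bulk of genes, so the summed mitochondrial value was 3386773 in bloom 9, more than CPM of all reads could reach. Divided by gene length, the non-bloom medians covered a very wide range. MT-CO1, the catalytic subunit of cytochrome c oxidase (complex IV), had the highest, 47568 per kb (lowest library 33879, highest 100448). MT-CO3, another of the 3 mitochondrial subunits of that complex, followed with 16689 per kb (9976 to 35105). MT-CO2, which receives electrons from cytochrome c, had 5896 per kb (4257 to 13424), and MT-ND4, a proton-pumping subunit of complex I, 5736 (4120 to 11450), and these ranges were nearly the same. MT-CYB, the cytochrome b of complex III, had 3989 per kb (2301 to 8816). MT-ND1, MT-ND4L and MT-ATP6 lay close together at 1729, 1629 and 1353 per kb, with ranges that overlap. The shorter rRNA gene had 1064 per kb (634 to 2285) and MT-ND5, a large proton-pumping subunit of complex I, 247 (188 to 467).

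The lowest members per length were MT-ND3 (28.8 per kb), MT-ND2 (7.45), MT-ND6 (2.59) and the longer rRNA gene (0.392), after the tRNA gene at 6909 (186). MT-ND2 and MT-ND3 encode complex I subunits, as MT-ND1 and MT-ND4 do, but their medians per kb were far below those of MT-ND1 and MT-ND4 in the same libraries. MT-ND6 is the one mRNA copied from the other strand. The longer rRNA gene had between 3 and 78 reads in a library while the shorter one had between 10335 and 174208. A cause of these gaps was not tested, and the levels of the 4 lowest genes are uncertain because the handling of reads with several matches is not known.

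The mRNAs of all complexes were high or low in the same libraries. The value of MT-CO3 was 7831 to 27557 (median 13101) in the non-bloom group and 1739 to 557001 (median 19206) in the bloom group. Bloom 9 was highest, then bloom 5 and bloom 6, bloom 8 was lowest, and the groups overlapped. The value of MT-CO1 was 52547 to 155795 (median 73779) in the non-bloom group and 4861 to 1675715 (median 67552) in the bloom group, with the same bloom libraries at the extremes. Against the non-bloom median, bloom 9 was between 22.7-fold (MT-CO1) and 109-fold (MT-ND1) higher over the 15 members tested. In bloom 5 the members were 7.97-fold (MT-CO1) to 26.4-fold (MT-ND5) higher, and in bloom 6 they were 3.19-fold (MT-CO1) to 9.92-fold (MT-ND5) higher. MT-CO1 was thus the least raised member in each of these libraries.

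Bloom 8 differed from the rest in its pattern. Its 12 mRNAs lay between 0.0659 (MT-CO1) and 0.529 times the non-bloom median, with a median of 0.147, while its shorter rRNA lay at 1.86 times and its longer rRNA at 1.49 times that median. In bloom 4 the values relative to the non-bloom median ran from 0.159 (MT-CO1) to 1.85 (longer rRNA), and the 4 members above the median were both rRNA genes, MT-ND1 and MT-ND5.

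**Figure D1:**
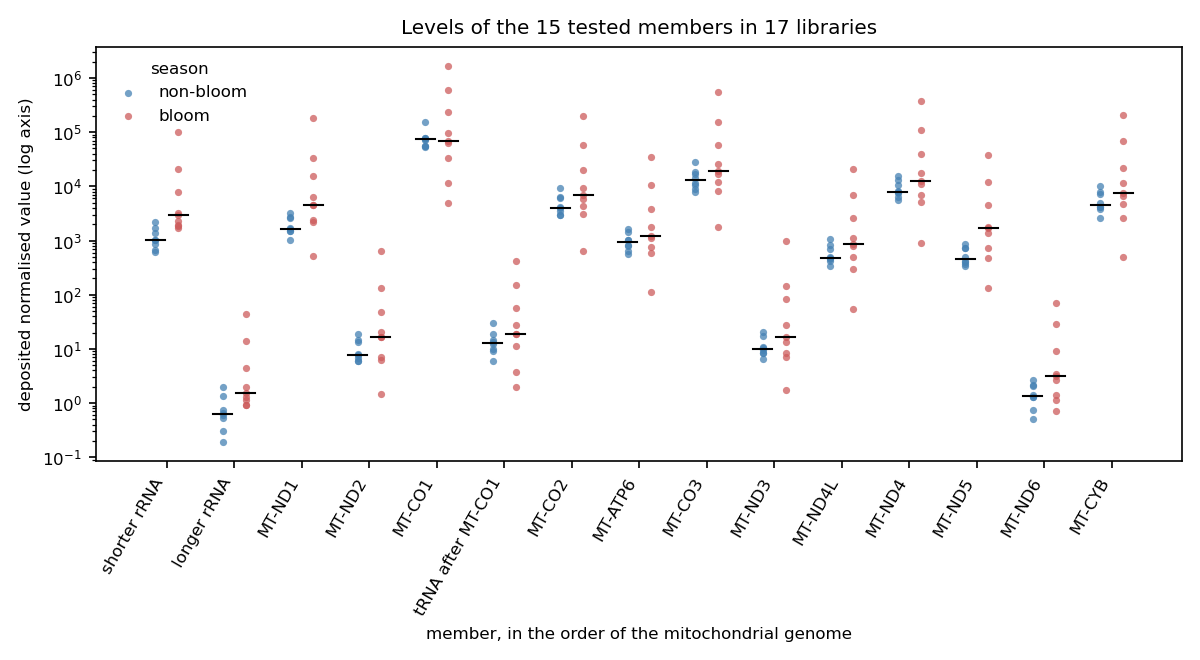
Deposited value (CPM with TMM-scaled library sizes, log axis) of the members tested in each library, non-bloom and bloom apart, with 1 point per dolphin and a bar at each group's median. Bloom 9 is the highest point for every member shown, and bloom 8 is among the lowest for the mRNAs but not for the shorter rRNA.

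Shares within the mitochondrial reads do not depend on the scaling between libraries, and they separated the seasons more cleanly than the values did. MT-CO1 took a smaller share of the mitochondrial reads in every bloom library than in any non-bloom library. The share was 58.4% to 69.4% (median 68.5%) in the non-bloom group and 32.3% to 57.4% (median 52.4%) in the bloom group, or 66.2% ± 4.17 (SD, n = 8) and 50.1% ± 8.12 (SD, n = 9). Bloom 4 was lowest and bloom 8, at 42.7%, next lowest. The widest 95% exact binomial interval of any of these shares reached 0.233 percentage points to either side, which covers counting error only.

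Shares of 3 other members also did not overlap between the groups, all higher in bloom. The shorter rRNA took 0.584% to 1.75% (median 1.04%) in the non-bloom group and 1.86% to 16.9% (median 2.45%) in the bloom group. MT-ND1, the complex I subunit near the ubiquinone site, took 0.925% to 2.21% (median 1.81%) and 3.08% to 6.07% (median 3.75%). MT-CO3 took 10.2% to 14.2% (median 12.4%) and 14.2% to 22.7% (median 15.3%), where the highest non-bloom library, at 14.18%, and the lowest bloom library, at 14.25%, almost met. Thus 4 of 15 members tested had shares that did not overlap, against 0.599% of the 13533 genes outside the mitochondrial genome, whose shares were taken of the reads outside it. Shares of a whole are tied to each other, so a smaller share of MT-CO1 raises the shares of all other members.

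Grouped by complex, the mRNA of complex IV made up a smaller part of the mitochondrial mRNA reads in bloom and that of complex I a larger part. Complex IV mRNA, of MT-CO1, MT-CO2 and MT-CO3, was 78.7% to 86.4% (median 84.0%) in the non-bloom group and 66.8% to 78.1% (median 76.7%) in the bloom group. No library overlapped, and the difference of means was -8.02 percentage points (two-sided exact permutation test over every arrangement of the libraries, p = 4.11e-05, the smallest p they can give, adjusted p = 0.000123 over 9 measures of composition by Benjamini-Hochberg). Complex I mRNA, of 7 genes, came nearly all from MT-ND4, MT-ND1, MT-ND5 and MT-ND4L. It was 8.87% to 14.0% (median 11.0%) and 15.4% to 23.8% (median 16.2%), again with no overlap. Its difference was 6.14 percentage points (exact permutation p = 4.11e-05, adjusted p = 0.000123). Bloom 4 stood at the end of both ranges, and without it the differences were -6.96 and 5.31 percentage points (exact permutation, adjusted p = 0.00028 for both). Members of 1 complex did not all move alike. Of complex IV, MT-CO1 took a smaller share of the mitochondrial reads in bloom, while MT-CO2 (medians 3.97% and 5.71%) and MT-CO3 took larger ones. Of complex I, MT-ND4 had medians of 67.2 and 65.5 reads per 100 of MT-CO3 and MT-ND4L 4.21 and 4.22. MT-ND1 had 14.4 and 26.2, and MT-ND5 3.50 and 7.07.

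MT-CYB, the only complex III gene of the mitochondrial genome, made up 3.32% to 6.21% (median 4.80%) of the mRNA reads in the non-bloom group and 5.27% to 7.69% (median 6.42%) in the bloom group. The groups overlapped, and the means differed by 1.62 percentage points (exact permutation test, adjusted p = 0.0029). MT-ATP6, the ATP synthase subunit that forms part of its proton channel, made up 0.721% to 1.14% (median 0.808%) and 0.953% to 1.69% (median 1.05%), with overlap and a difference of 0.257 percentage points (exact permutation, adjusted p = 0.00703). MT-ND6 made up only 0.000454% to 0.00180% in the non-bloom group and 0.00182% to 0.00766% in the bloom group. These did not overlap but met closely, at 27 reads in non-bloom 5 and 43 reads in bloom 7. As a share of all mitochondrial reads, MT-ND6 did overlap between the groups. The means of its share of mRNA reads differed by 0.00169 percentage points (exact permutation, adjusted p = 0.00074).

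**Figure D2:**
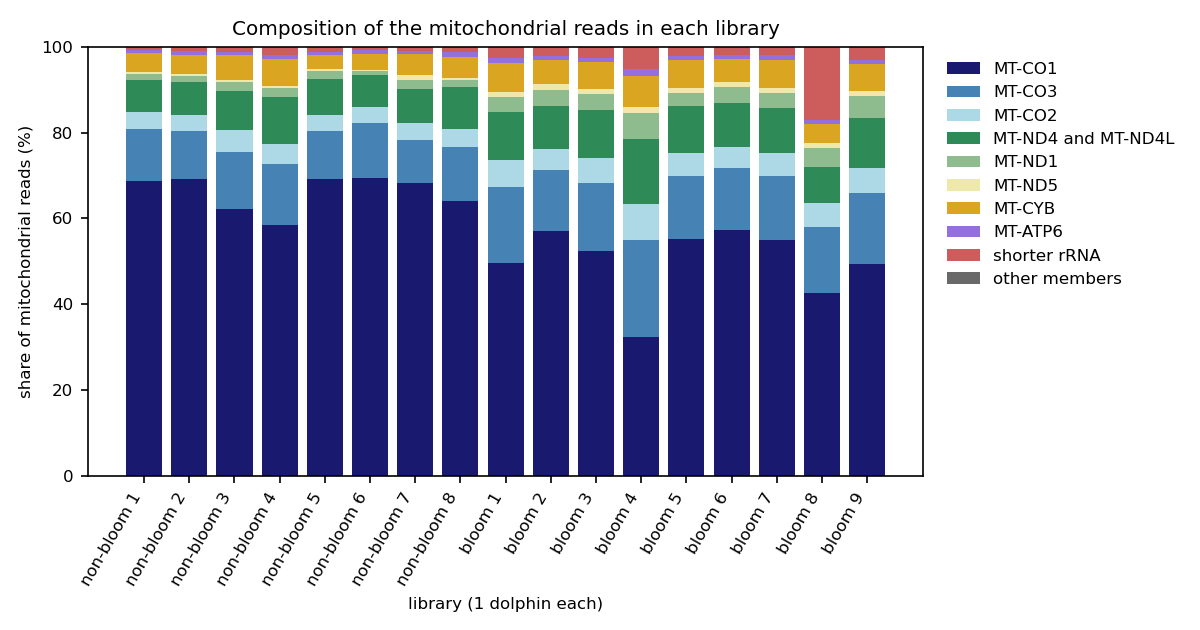
Share of the mitochondrial reads in each library (percent, stacked to 100), by member, with MT-ND4 and MT-ND4L joined and the rarest members pooled as other, the 8 non-bloom libraries first and the 9 bloom libraries after them. MT-CO1 fills 58.4% or more of each non-bloom bar and 57.4% or less of each bloom bar, and bloom 8 has the largest segment of the shorter rRNA, 16.9%.

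Because MT-CO1 holds most of the reads, the shares were computed once more without it, an alternative added after the shares had been seen. Then complex I mRNA was still a larger part in bloom, by 2.80 percentage points (exact permutation, adjusted p = 0.0418), and the rRNA share by 4.81 (adjusted p = 0.00815, exact permutation). Complex IV mRNA, now MT-CO2 and MT-CO3, differed by -1.70 percentage points (exact permutation, adjusted p = 0.275, not passing). The direction turned for MT-CYB, with -0.834 (exact permutation, adjusted p = 0.396), and for MT-ATP6, with -0.273 (exact permutation, adjusted p = 0.0418). The higher shares of MT-CYB and MT-ATP6 in bloom were thus not found among the remaining members.

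Counted against MT-CO3, the members differed in how steady their proportions were. MT-CO2, MT-ATP6, MT-ND4L, MT-ND4 and MT-CYB kept nearly fixed proportions to MT-CO3 over all 17 libraries. MT-CO2 had 28.0 to 38.3 reads per 100 of MT-CO3, MT-ATP6 5.88 to 7.89, MT-ND4L 3.10 to 4.70, MT-ND4 51.0 to 73.1 and MT-CYB 28.6 to 49.1. The highest library was 1.34-fold (MT-ATP6) to 1.72-fold (MT-CYB) above the lowest. The deposited value of MT-CO3 itself spanned 320-fold, or 15.8-fold without bloom 5, 6 and 9.

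MT-CO1, MT-ND1, MT-ND5 and the shorter rRNA varied more against MT-CO3, from 4.50-fold (MT-ND1) to 24.4-fold (shorter rRNA). In between lay MT-ND2 (2.53-fold), MT-ND3 (3.01-fold) and the tRNA gene at 6909 (3.49-fold). MT-ND6 and the longer rRNA, with few reads, spanned 11.9-fold and 40.3-fold. Each span rests on the 2 extreme libraries of its member, so this order depends on single libraries. Per 100 MT-CO3 reads, MT-CO1 was lowest in bloom 4 (142), with bloom 8 next (279). MT-ND1 was lowest in non-bloom 6 (7.18), with non-bloom 1 next (11.5). MT-CO1 had 412 to 671 reads (median 552) per 100 of MT-CO3 in the non-bloom group and 142 to 402 (median 329) in the bloom group, with no overlap. The shorter rRNA had 4.53 to 12.3 (median 8.68) and 12.5 to 111 (median 14.1), where bloom 8 gave the 111 and the next, bloom 4, had 22.7. These were 2 of the 14 members tested other than MT-CO3 for which the groups did not overlap, against 0.00% of the 13533 genes outside the mitochondrial genome. Against MT-CO3 those genes also vary with the share of mitochondrial reads in the library. MT-ND1 had 7.18 to 21.7 (median 14.4) and 19.9 to 32.3 (median 26.2), with overlap through non-bloom 7, bloom 1 and bloom 5. MT-ND5 had 2.35 to 10.9 (median 3.50) and 5.86 to 10.1 (median 7.07). For MT-ND5 non-bloom 7 was above every bloom library and the other 7 non-bloom libraries, at 4.42 or less, were below every bloom library.

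**Figure D3:**
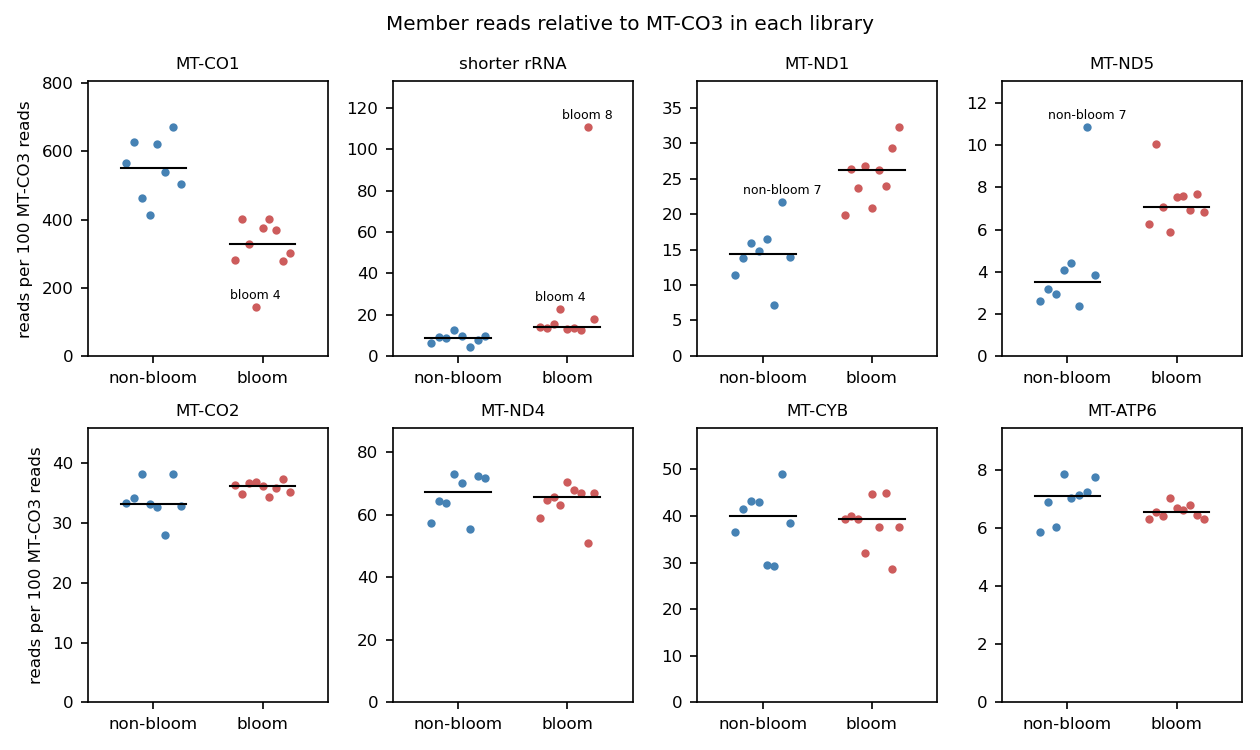
Reads per 100 MT-CO3 reads (linear axes from 0) for 8 members, non-bloom and bloom, with 1 point per dolphin and a bar at each median. MT-CO1 is lower and the shorter rRNA higher in every bloom library, MT-ND1 and MT-ND5 are higher in most, and MT-CO2, MT-ND4, MT-CYB and MT-ATP6 overlap between the groups.

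MT-ND5 and MT-CO1 lie far and near along the same strand, and their ratio was one of the 9 measures. The log2 ratio of MT-ND5 to MT-CO1 reads was -7.84 to -5.95 (median -7.22) in the non-bloom group and -5.74 to -4.60 (median -5.49) in the bloom group. The groups did not overlap, and the means differed by 1.75 on the log2 scale (exact permutation p = 4.11e-05, adjusted p = 0.000123). Non-bloom 7 was the non-bloom library nearest to the bloom range and bloom 4 the one farthest from the non-bloom range. Leaving out any 1 library gave differences of 1.65 to 1.93.

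The rRNA share as a whole, which is almost all the shorter gene, was higher in bloom by 3.14 percentage points (exact permutation p = 0.00128, adjusted p = 0.0023). Much of that mean came from bloom 8, and without bloom 8 the difference was 1.55 percentage points with still no overlap (exact permutation, adjusted p = 0.00028). The log2 ratio of the longer to the shorter rRNA was -11.8 to -9.77 in the non-bloom group and -11.3 to -10.5 in the bloom group, and the difference of -0.04 did not pass (exact permutation, p = 0.831). That ratio rests on at most 78 reads of the longer gene. The tRNA share, nearly all from the gene at 6909, was 0.00777% to 0.0177% and 0.0116% to 0.0185%, with overlap and a difference of 0.00343 percentage points (exact permutation, adjusted p = 0.0292). This last call was lost on leaving out non-bloom 6, non-bloom 7, bloom 2 or bloom 8 (exact permutation, adjusted p from 0.0507 to 0.061).

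The differences in composition did not need the 3 libraries with the most mitochondrial reads. Without bloom 5, 6 and 9 the complex IV difference was -8.46 percentage points, the complex I difference 6.42, the rRNA difference 4.10 and the log2 ratio of MT-ND5 to MT-CO1 1.85 higher (exact permutation, adjusted p from 0.000749 to 0.0012). The 6 bloom libraries that were left had pan-neuronal sums of 5663 to 10246, against 8260 to 13661 in the non-bloom group. Bloom 2 (5663), bloom 3 (8111) and bloom 7 (7663) were below that range. Astrocyte sums of the 6 were 1367 to 5852, against 1785 to 3254, with bloom 1 (1367) below and bloom 2 (5852) above. Oligodendrocyte sums of the 6 were 4262 to 8567, against 1647 to 7876, with bloom 4 (8567) above. In bloom 8, which had the highest rRNA share, the pan-neuronal, astrocyte and oligodendrocyte sums were 8789, 1803 and 4964, within the non-bloom ranges. Its endothelial sum, 181, and that of bloom 4, 183, were below the non-bloom range of 257 to 790. Those of bloom 3 (1152) and bloom 7 (1162) were above it. The part of cell makeup in the composition of these 6 libraries was not tested. RNA integrity is given only as a median of 9.1 over the 17 samples, so whether it moved with the composition was not tested.

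The deposited values themselves overlapped between the seasons for all 15 members tested, where 0.657% of all genes tested did not overlap. In the season test on these values, 1 of 15 members rose and 0 fell. The test was limma on log2(value + 1) across 13548 genes, of which 9.16% passed in either direction and 4.47% were higher in bloom at a Benjamini-Hochberg adjusted p under 0.05. The member that rose was the shorter rRNA. Its value was 618 to 2225 (median 1037) in the non-bloom group and 1667 to 99558 (median 2956) in the bloom group. All 9 bloom libraries were above the non-bloom median, but the groups overlapped through non-bloom 1 and non-bloom 4. The log2 change was 2.21 (SE 0.67, limma adjusted p = 0.0487). The call was close to the threshold and held in 4 of 17 fits that left out 1 library, those without bloom 1, bloom 4, bloom 8 or bloom 9 (limma adjusted p from 0.0268 to 0.0916 over the 17).

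The other members were all higher in bloom on average, and none of them passed. At an unadjusted limma p under 0.05 there were 5 members, against 16.4% of all genes tested that were higher at that level. These were the shorter rRNA, MT-ND5 (log2 change 1.93, SE 0.80, limma adjusted p = 0.0971), the longer rRNA (1.32, SE 0.53, adjusted p = 0.0907), MT-ND1 (1.87, SE 0.81, adjusted p = 0.113) and MT-ND6 (1.34, SE 0.60, adjusted p = 0.122). MT-CO1 had the smallest change, 0.18 (SE 0.99, limma adjusted p = 0.909). The remaining 9 members had log2 changes of 0.92 (MT-ATP6) to 1.34 (MT-ND3). The median over the 15 members was 1.10, beside -0.0034 over all genes tested, and 15 of 15 were positive, beside 49.7% of all genes.

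That direction depended on bloom 5, 6 and 9. These libraries were set apart for having the highest mitochondrial shares, while the bloom libraries with the lowest shares stayed in. Leaving them out therefore lowers the members by construction, and the fall itself cannot decide whether the members differed with season. The median over the members without bloom 5, 6 and 9 was -0.23, and 5 of 15 were positive. By limma 0 members then passed, against 2.34% of all genes tested. At an unadjusted limma p under 0.05 there was 1 member, against 22.6% of all genes. MT-CO1 then had a log2 change of -1.27 (limma adjusted p = 0.226) and the shorter rRNA 1.05 (limma adjusted p = 0.0537). Other count-based tools gave other calls on the recovered reads. edgeR called 7 members higher, with 6.10% of all genes called higher, and DESeq2 called 10, with 14.3%. The log2 changes of DESeq2 were near those of edgeR for some members, such as MT-ND4L (2.70 and 2.65). They were lower for others, such as MT-ND1 (2.03 and 3.80). DESeq2 was run with its default treatment of outlying counts, and the part of that in these gaps was not tested. edgeR without bloom 5, 6 and 9 called 0 members, with 1.38% of all genes called. At an unadjusted edgeR p under 0.05 there were then 2 members, against 21.9% of all genes. Without bloom 8, limma called 3 members higher, the shorter rRNA, MT-ND5 and MT-ND1, with 8.53% of all genes called higher.

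**Figure D4:**
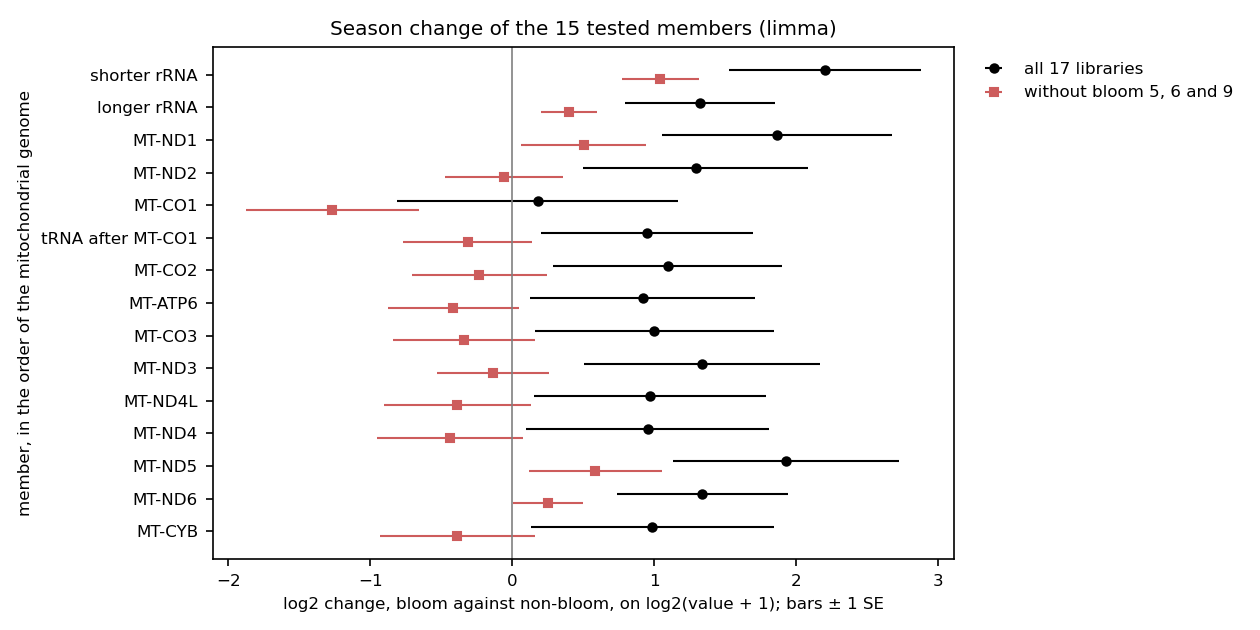
Log2 change of each member tested, bloom against non-bloom (limma on log2(value + 1), bars are 1 SE), with all 17 libraries and without bloom 5, 6 and 9. With all libraries the 15 changes lie above 0. Without those 3 libraries, set apart for their high mitochondrial shares, 10 of the changes lie below 0, MT-CO1 lowest at -1.27.

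The nuclear genes that serve the mitochondrial genome were taken as 6 lists with 81 genes, of which 72 were found in the files and tested. By limma, 2 rose and 5 fell, a share close to the 9.16% of all genes. None of the 7 passed without bloom 5, 6 and 9 (limma adjusted p from 0.0547 to 0.13). Of all 13548 genes tested, limma called 606 higher and 635 lower, and edgeR called 826 higher and 297 lower.

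Of 10 genes for mitochondrial transcription, 1 rose and 0 fell. The one was MTERF2, a member of the mitochondrial transcription termination factor family, with 2.97 ± 1.10 in the non-bloom group (SD, n = 8) and 5.19 ± 1.15 in the bloom group (SD, n = 9). Its log2 change was 0.66 (SE 0.18, limma adjusted p = 0.0365). The polymerase itself, POLRMT, had 19.3 ± 3.97 and 19.8 ± 2.78. TFAM, which packages mitochondrial DNA and starts its transcription, had 16.4 ± 1.91 and 13.7 ± 3.33 and did not pass (log2 change -0.26, limma adjusted p = 0.18). The initiation factor TFB2M had a log2 change of 0.12 and the elongation factor TEFM one of 0.21, and neither passed (limma adjusted p = 0.554 and 0.336).

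Of 13 genes tested for replication and the nucleoid, 0 passed by limma or by edgeR, with 2 lower at an unadjusted limma p under 0.05. At that level there were 4797 of all 13548 genes tested, 2216 of them higher and the rest lower. TOP3A, a topoisomerase, passed without bloom 5, 6 and 9 (log2 change 0.49, limma adjusted p = 0.0214) and not with them (0.31, limma adjusted p = 0.239). The polymerase POLG had 51.6 ± 4.00 and 46.6 ± 6.27, the helicase TWNK 7.79 ± 1.16 and 6.74 ± 1.72, and the single-strand binding protein SSBP1 37.1 ± 4.62 and 34.9 ± 7.11.

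Among 20 genes for RNA processing, stability and decay, 1 rose and 2 fell by limma. edgeR called 2 higher and 1 lower, without ELAC2 (edgeR adjusted p = 0.0552) and with HSD17B10, a subunit of the tRNA 5′ processing enzyme (edgeR log2 change 1.03, adjusted p = 0.0441, limma adjusted p = 0.0641). ELAC2, which cuts the 3′ end of mitochondrial tRNAs out of the precursor, fell from 57.6 ± 10.2 to 37.5 ± 12.7 (log2 change -0.67, SE 0.20, limma adjusted p = 0.0471). GRSF1, an RNA-binding protein of the mitochondrial RNA granule, fell from 75.3 ± 8.43 to 56.5 ± 10.6 (log2 change -0.42, SE 0.12, limma adjusted p = 0.0439). FASTKD1, of a family that acts on the stability of mitochondrial mRNAs, rose from 11.9 ± 1.66 to 17.9 ± 5.12 (log2 change 0.53, SE 0.15, limma adjusted p = 0.0421). LRPPRC, which stabilises most mitochondrial mRNAs, had 136 ± 16.3 and 124 ± 15.8, and its partner SLIRP had 20.0 ± 6.31 and 48.0 ± 46.6. SLIRP did not pass (log2 change 0.91, limma adjusted p = 0.0801). The poly(A) polymerase MTPAP, the nuclease PNPT1, the helicase SUPV3L1, the 5′ processing subunit TRMT10C and FASTK, which acts on MT-ND6 mRNA, had log2 changes of -0.24, 0.09, 0.13, -0.12 and 0.29, and none of them passed.

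The 11 translation factors tested gave 0 calls by limma and 0 by edgeR, with 1 higher and 1 lower at an unadjusted limma p under 0.05. Of all 13548 genes tested, 4797 reached that level, 2216 of them higher and the rest lower. The elongation factor GFM1 had 44.8 ± 7.49 and 38.6 ± 7.98, and the insertase OXA1L 87.2 ± 17.0 and 79.3 ± 8.16. The 7 regulators of mitochondrial biogenesis tested also gave 0 calls by either tool, with 1 lower at an unadjusted limma p under 0.05, and without bloom 5, 6 and 9 NRF1 passed (log2 change 0.45, limma adjusted p = 0.0421). That 1 was PPARGC1A, the coactivator PGC-1alpha, with 31.3 ± 13.2 and 17.5 ± 10.3 (log2 change -0.90, SE 0.31, limma adjusted p = 0.0612). The transcription factor NRF1 had 15.7 ± 0.738 and 18.1 ± 6.66, and the nuclear receptor ESRRA 36.3 ± 14.7 and 46.7 ± 18.2.

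Of 11 nuclear genes often used as measures of mitochondrial mass, 3 fell and 0 rose by limma, and edgeR called 2 of them lower, without TOMM20 (edgeR adjusted p = 0.0522). Of all 13548 genes tested, limma called 635 lower and edgeR 297. In this list 4 of the 11 log2 changes were positive. TOMM20, a receptor of the outer-membrane import pore, fell from 87.3 ± 13.1 to 49.6 ± 23.1 (log2 change -0.95, SE 0.26, limma adjusted p = 0.0397). VDAC1, the main outer-membrane channel, fell from 326 ± 32.0 to 217 ± 59.5 (log2 change -0.63, SE 0.16, limma adjusted p = 0.033). CS, the citrate synthase of the matrix, fell from 210 ± 25.7 to 149 ± 33.1 (log2 change -0.51, SE 0.14, limma adjusted p = 0.0366). HSPD1, the matrix chaperonin, had 309 ± 43.1 and 318 ± 51.9 and did not pass (limma adjusted p = 0.848). The summed value of this list was 1625 in bloom 5, 2158 in bloom 6 and 1654 in bloom 9, against 1879 to 2466 in the non-bloom group. It was also below that range in bloom 1, bloom 3 and bloom 7, at 1798, 1844 and 1802.

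**Figure D5:**
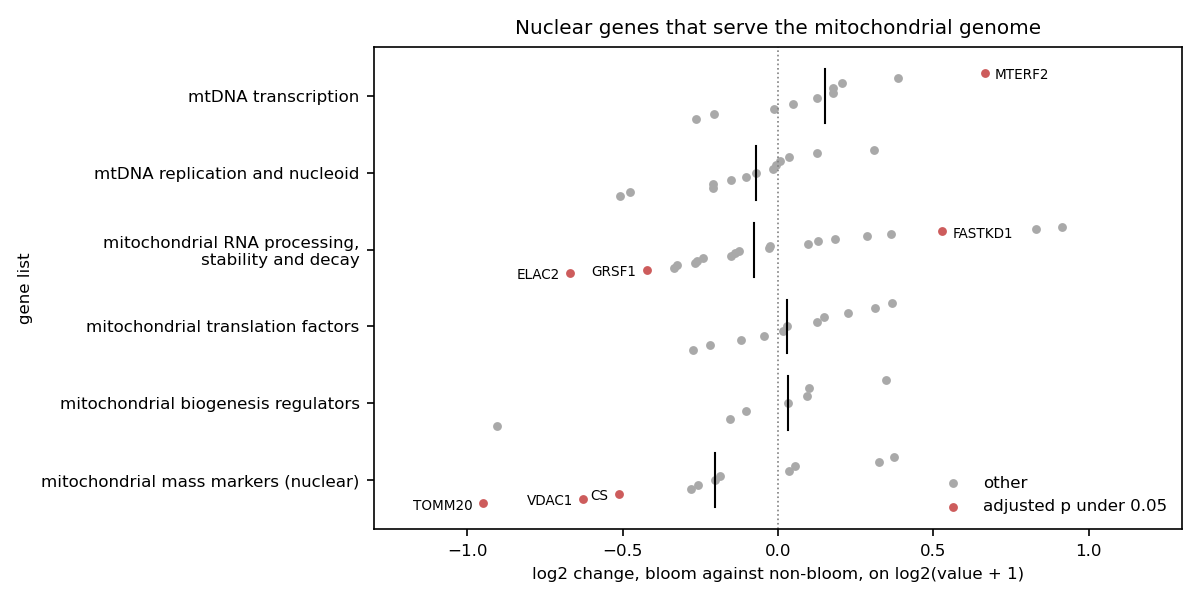
Log2 change, bloom against non-bloom (limma on log2(value + 1)), of the 72 nuclear genes tested, by list, with 1 point per gene and a bar at each list's median. Red points passed, grey points did not: of those that passed, 2 lie above 0 (MTERF2 and FASTKD1) and 5 below 0 (ELAC2, GRSF1, TOMM20, VDAC1 and CS).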

How the data were processed

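RNA was extracted from about 100 mg of cortex with a lipid tissue column kit, and libraries were made from 600 ng by a messenger RNA method with 14 PCR cycles, per the labels' protocols. Trim Galore 0.6.1 and the aligner STAR 2.5.2a are listed in the submitters' processing notes. How reads were counted, and on which build, is not stated in the sources used here. The authors deposited 1 signal value for each gene in each library. All nonzero values (100%) were whole multiples of the value of 1 read within 0.01, and the divisors equalled TMM factors recomputed here, so the values are CPM on TMM-scaled library sizes. A value of 3 reads was 0.158 to 1.71. With reads copied by PCR, exact binomial intervals cover counting error only.

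Genes were kept by filterByExpr (minimum count 10, minimum total 15), which left 13548. The test was limma-trend on log2(value + 1), season the only term. Shares came from the recovered reads and were compared by two-sided exact permutation tests of the difference in group means, adjusted over 9 measures. The members and lists were chosen with earlier results of these data known. Named genes are every member, the list genes set by role, and any list gene that passed. TOP3A and HSD17B10 were named after their values were seen. The list genes RNASEH1, TOP1MT, PRORP, FASTKD5, PTCD1, TUFM, MTRFR, YY1 and TIMM23 were not matched by symbol. Alternatives were other scalings, a pseudocount of 0.1, no filter, edgeR and DESeq2 on the recovered reads, reads per kb, medians, and leaving out each library. Added later were leaving out bloom 5, 6 and 9 and leaving MT-CO1 out of the shares. On simulated data for the season comparison, tested with 13704 genes, limma found 61 of 89 genes changed by 1 on the log2 scale and 110 of 110 changed by 2, and 10 of its 181 calls were false. The simulation gave all genes the same dispersion and set no library apart. Its rates therefore do not carry over to the members, where changes of 1.87 (MT-ND1) and 1.93 (MT-ND5) did not pass. The tools were limma 3.58.1, DESeq2 1.42.0 and edgeR 4.0.16 under R 4.3.3. Integrity values and batches per library, and sequences, were not used here.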

Additional observations from a re-analysis of the deposited data

Results flagged for a closer look

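A highest or lowest library far from its nearest neighbour, relative to the group's range, was looked for in groups of 8 or 9 libraries. In 48 groups of values 22 were found. Chance alone gives about 1 in 20 groups only for normally distributed values. The deposited values were skewed and the shares tied to each other, so no excess over chance can be read from this. Of the 22, 16 were deposited values, and in 15 of them the library was bloom 9, 1 for each member tested, so they are not independent. Bloom 9 had values of 99558 for the shorter rRNA, 44.6 for the longer rRNA, 179810 for MT-ND1, 654 for MT-ND2, 1675715 for MT-CO1 and 416 for the tRNA gene at 6909. It had 196313 for MT-CO2, 35144 for MT-ATP6, 557001 for MT-CO3, 978 for MT-ND3, 20539 for MT-ND4L, 372380 for MT-ND4, 38143 for MT-ND5, 71.4 for MT-ND6 and 209981 for MT-CYB. The other was MT-CO1 in non-bloom 1, at 155795, with the next non-bloom library at 78271.

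The 6 in the composition came from 2 libraries. Bloom 8 had an rRNA share of 16.9% with the next at 5.15%, and an MT-ND6 share of mitochondrial mRNA of 0.00766% with the next at 0.00331%. Bloom 4 had 23.8% of its mitochondrial mRNA from complex I, 66.8% from complex IV and 1.69% from complex V, and a log2 ratio of MT-ND5 to MT-CO1 of -4.60, where the next bloom library had -5.18. Bloom 4 and bloom 8 were also the 2 libraries with the fewest mitochondrial reads.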

How the results depend on the processing

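The number of genes called with season, 1241 in the test reported, was 547 with scaling to reads outside the mitochondrial genome, 5 with CPM of all reads, 560 with no filter, 3182 with DESeq2, 320 and 188 without bloom 5, 6 and 9 (limma and edgeR), and 61 to 2895 on leaving out each library (fewest without non-bloom 2, most without bloom 1). CPM of all reads moved the median of all genes to -0.30. Of the calls, 48.8% were higher in the test reported, 70.2% with the first of these scalings and 80% with CPM. The number of members called was 0 with either of these scalings, with a pseudocount of 0.1, with no filter and without bloom 5, 6 and 9 by limma or edgeR, 7 with edgeR, 10 with DESeq2 and 0 to 3 on leaving out each library. The log2 change of MT-CO1 turned to -0.19 with CPM and ran from -0.36 to 0.69 on leaving out each library, with -0.17 without bloom 5, -0.01 without bloom 6 and -0.36 without bloom 9. Without bloom 5, 6 and 9 limma gave -0.0587 for MT-ND2, -1.27 for MT-CO1, -0.31 for the tRNA gene at 6909, -0.23 for MT-CO2, -0.41 for MT-ATP6, -0.34 for MT-CO3, -0.13 for MT-ND3, -0.39 for MT-ND4L, -0.44 for MT-ND4 and -0.39 for MT-CYB. edgeR then gave -0.76 for MT-CO1, -0.0616 for the tRNA gene, -0.0582 for MT-CO3, -0.0643 for MT-ND4, -0.11 for MT-ATP6 and -0.0010 for MT-ND4L. Per kb, the tRNA share difference was 0.0389 percentage points (exact permutation, adjusted p = 0.16), and on leaving out each library it was 0.00279 to 0.00421 by reads. With MT-CO1 left out, the differences were -0.00464 for the tRNA share, -0.834 for complex III, -1.70 for complex IV, -0.273 for complex V and 0.0023 for MT-ND6. The rRNA difference ran from 1.55 (without bloom 8) to 3.43 and the MT-ND6 difference from 0.00111 (without bloom 8) to 0.00184 on leaving out each library. The log2 ratio of longer to shorter rRNA ran from -0.18 to 0.10, above 0 without non-bloom 1 (0.10) and without bloom 7 (0.01). The rRNA, complex I, III, IV and V, MT-ND6 and MT-ND5 to MT-CO1 differences kept direction and call in all 17 such fits, per kb, with medians and without bloom 5, 6 and 9. The cause of these changes was not tested. No paired analysis was possible because each dolphin gave 1 library, so no dolphin was sampled in both seasons. Reads of the longer rRNA, MT-ND6 and the tRNA genes were few, which limits their precision.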
